A study of Mus musculus with 2 samples.

Results

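The genes described here encode the subunits of hypoxia-inducible factor (HIF) and the enzymes that sense oxygen for it. They are the alpha subunits Hif1a and Epas1 (HIF-2 alpha), their partners Arnt and Arnt2, the prolyl hydroxylases Egln1, Egln2 and Egln3, the asparaginyl hydroxylase Hif1an and the ubiquitin ligase subunit Vhl. They were chosen by gene name, and all 9 were on the array, on 16 of its 55681 probes. All 9 were among the 19220 genes measured. mIMCD3, a line of collecting duct epithelium from the inner medulla of the mouse kidney, was grown in serum-containing medium, and cells given 10 ng/mL of FGF23 for 4 h were set against cells without it. FGF23 is a hormone made by bone that lowers phosphate uptake in the kidney. Both RNAs were hybridised together on each of 2 Agilent two-colour arrays, with FGF23 RNA in Cy3 on array 1 and in Cy5 on array 2. The labels give no oxygen level for the cultures and do not state separate cultures for the arrays. The p-values then measure only the spread between these arrays, which may be technical.

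A HIF alpha subunit pairs with Arnt or Arnt2 and switches on genes for glycolysis, vessel growth and mitophagy. When oxygen is present, Egln enzymes hydroxylate prolines of the alpha subunit, Vhl binds the hydroxylated protein and it is degraded, while Hif1an blocks its recruitment of coactivators. HIF activity is therefore set mainly at the level of protein, which RNA arrays do not measure. Egln1 and Egln3 are known targets of HIF themselves and so form a feedback loop, whereas Egln2 is not known for induction by low oxygen.

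The arrays held 59305 spots other than controls, of which 48.2% to 55.2% were well above background in a dye, and none was saturated. Of 24 collecting duct and ureteric epithelium markers, 16 were measured, the brightest being the keratins Krt8 and Krt18 and the cadherin Cdh16. The water channel Aqp2 was dim, at a mean log2 intensity of 7.52. Aqp3, Aqp4, the vasopressin receptor Avpr2 and the sodium channel subunits Scnn1b and Scnn1g were among the markers of this list not measured. Measured were also 4 of 10 endothelial, 5 of 10 proximal tubule, 2 of 10 interstitial fibroblast and 5 of 10 macrophage markers. The endothelial genes Cdh5 and Tek and the leukocyte gene Ptprc were among those not measured. Of the measured ones, endothelial Kdr and the macrophage genes Itgam and Csf1r were bright, at mean log2 intensities of 11.34, 11.91 and 11.46. Endothelial Pecam1 and the macrophage gene C1qb were dim, at 6.83 and 6.61. No marker of these 5 lists passed the test, and the lists' median log2 ratios lay between -0.021 and 0.12, the highest for macrophage markers. Their part in the results was not tested.

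The cells carried signal for both alpha subunits, for Arnt, for all 3 Egln enzymes, for Vhl and for Hif1an. Each of these 8 genes had a probe well above background on all arrays, with FGF23 and without. None of the 9 genes passed the test of a change after FGF23, and with the brightest probe of each gene their mean log2 ratios lay between -0.098 (Arnt2) and 0.10 (Egln1). In limma's test over all genes, 0 of 9 members passed an adjusted p of 0.05, against 0.0468% of genes called higher and 0% called lower. At an unadjusted p under 0.05, again 0 of 9 were called in limma, where 2.6% of genes were higher and 1.31% lower. Adjusted p was 1 for each of the 9 genes. The smallest mean change that passed anywhere on the array was 1.5-fold. The spike-in slopes in the file headers, 0.851 and 0.852, describe the software's own ratios. The slope of the ratios used here was not tested.

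**Figure D1:**
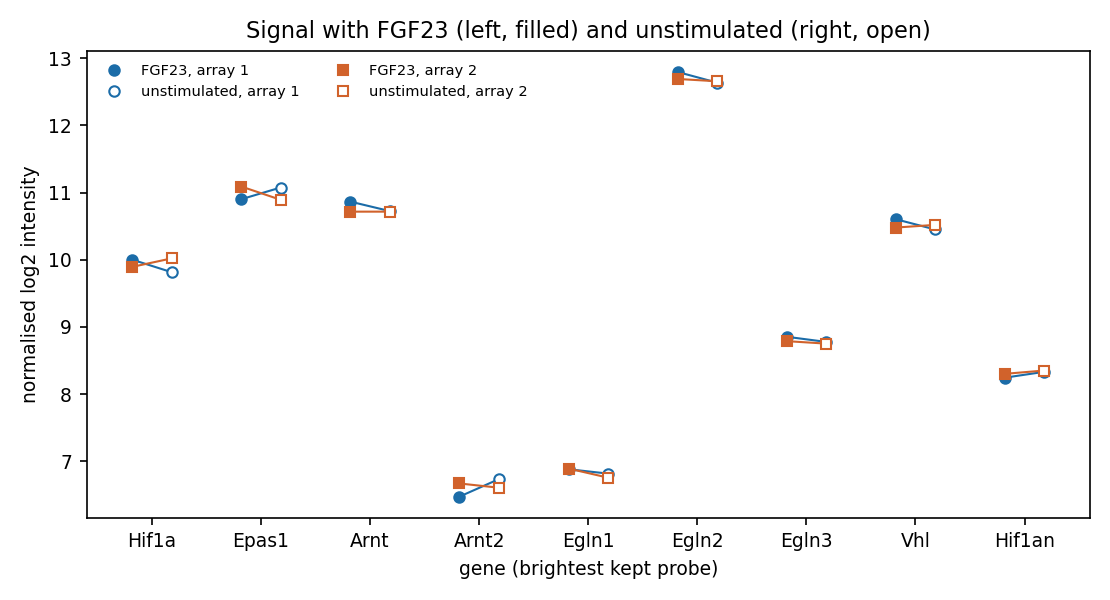
Normalised log2 intensity (y axis) of the brightest kept probe of each gene (x axis) with FGF23 (filled, left) and in unstimulated cells (open, right), with circles for array 1 and squares for array 2. Lines join the conditions of an array; heights of different probes are not comparable. For Hif1a, Epas1, Arnt2 and Vhl the lines of the 2 arrays slope in opposite directions.

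Hif1a, the broadly expressed alpha subunit, had normalised log2 intensities of 10.00 and 9.89 with FGF23 on arrays 1 and 2, against 9.82 and 10.02 in unstimulated cells. FGF23 was the higher condition on array 1 and the lower one on array 2, so the conditions overlapped. The log2 ratio averaged 0.030 ± 0.22 (SD, n = 2 arrays), a 1.02-fold difference with a 95% interval from 0.884 to 1.18 in limma. The probe lies on chromosome 12 from 75047269 to 75047329 (mm9, plus strand). A second Hif1a probe, A_55_P2149011, made from the transcript AK017853, lies on the same chromosome from 75033965 to 75034024. It was well above background only in unstimulated cells on array 1, so no fold is given for it.

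Epas1, the alpha subunit known for driving erythropoietin and iron-uptake genes, had log2 intensities of 10.90 and 11.09 with FGF23, against 11.08 and 10.89 in unstimulated cells. Its order was the reverse of Hif1a's, with FGF23 lower on array 1 and higher on array 2. The mean log2 ratio was 0.012 ± 0.26 (SD, n = 2 arrays), with a 95% interval of the fold from 0.867 to 1.17 in limma. This probe lies on chromosome 17 from 87230678 to 87230737 (mm9).

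A second Epas1 probe, A_51_P250058, gave another value. It starts 1937 bases further along the same transcript, on chromosome 17 from 87232615 to 87232674. Its log2 intensities were 7.73 and 7.60 with FGF23, against 7.51 and 7.37 in unstimulated cells. FGF23 was higher on both arrays, and the log2 ratios of 0.22 and 0.23 differed little between them. In limma's fit over every kept probe, the mean of 0.22 ± 0.0063 (1.17-fold) had an unadjusted p of 0.0196 and an adjusted p of 1. It was the only one of 13 kept member probes under 0.05 unadjusted, against 2.51% of all kept probes called higher in that way. The Epas1 probes were alike on array 2, at 0.20 and 0.23, and opposite in sign on array 1, at -0.17 and 0.22. Averaging them gave Epas1 a log2 ratio of 0.12. One more Epas1 probe, 91 bases from the first, was not well above background anywhere.

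Arnt, the constitutive partner of the alpha subunits, had log2 intensities of 10.87 and 10.72 with FGF23, against 10.73 and 10.72 in unstimulated cells. FGF23 was the higher condition on array 1 and level with unstimulated cells on array 2, and the mean log2 ratio was 0.070 ± 0.099 (SD, n = 2 arrays; 95% interval of the fold in limma 0.920 to 1.20). The probe lies on chromosome 3 from 95301081 to 95301140 (mm9). A dimmer Arnt probe 1647 bases upstream on the transcript had log2 ratios of 0.014 and -0.078, for a mean of -0.032. A further Arnt probe, for ENSMUST00000107160, was well above background only in unstimulated cells on array 1.

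Arnt2, a partner known mainly from neurons and kidney, was near the limit of detection. Its log2 intensities were 6.47 and 6.67 with FGF23, against 6.73 and 6.61 in unstimulated cells. With FGF23 it cleared background on array 2 alone (1 of 2), and in unstimulated cells on both arrays. The log2 ratio of -0.098 ± 0.23 (SD, n = 2 arrays) thus rests partly on background-level signal, and Agilent's processed ratio gave -0.31, at an adjusted p of 1 in limma.

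With the brightest probe of each gene, Hif1a, Epas1 and Arnt2 had log2 ratios of opposite sign on the 2 arrays, as did 53.8% of all genes. Arnt differed in sign only through a value next to 0 on array 2, at -0.00026, and the second Epas1 probe was above 0 on both arrays. Read as Cy5 over Cy3 with neither array turned, the mean log2 ratios were -0.16 for Hif1a, 0.19 for Epas1 and 0.16 for Arnt2. With 1 array in each dye orientation, a dye effect and array noise cannot be told apart.

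**Figure D2:**
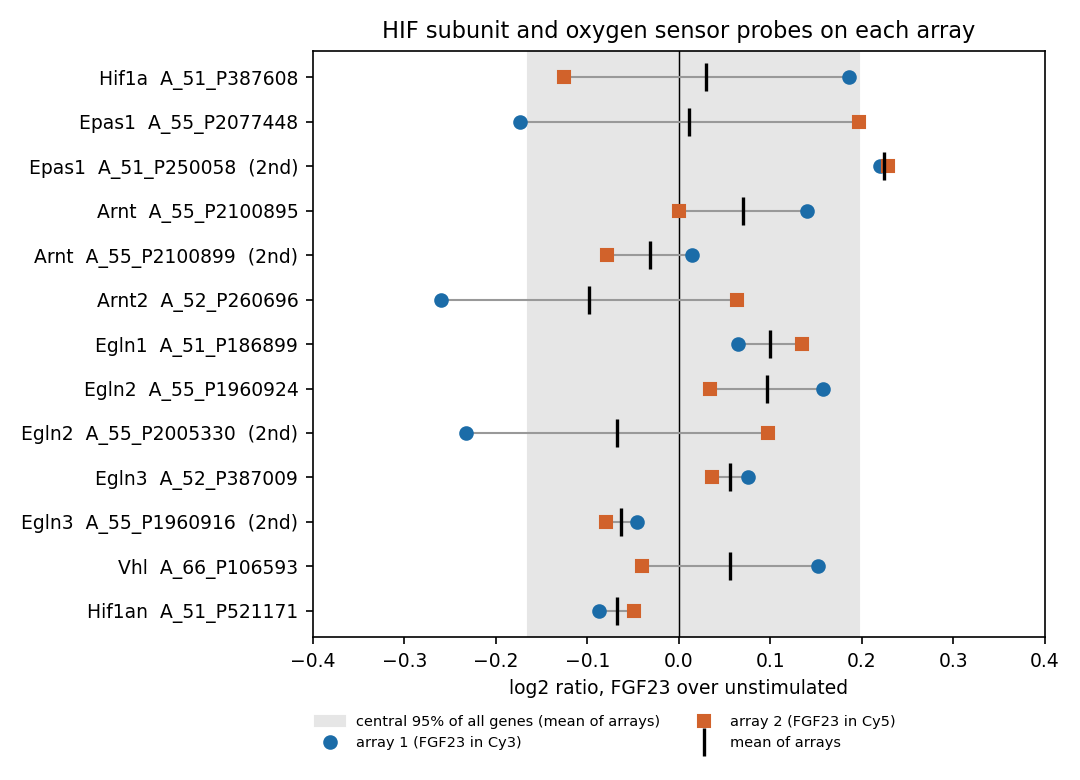
Log2 ratio of FGF23 over unstimulated (x axis) for the 13 kept probes of the 9 genes (rows; "2nd" marks a gene's dimmer kept probe), with circles for array 1, squares for array 2 and a black bar for their mean. The grey band, from -0.16 to 0.20, holds the central 95% of the mean log2 ratios of all genes; the mean of the second Epas1 probe lies outside it.

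Egln1 and Egln3, the hydroxylases that HIF induces, were slightly above 0 on both arrays and did not pass. Egln1, the main oxygen sensor in most cells, had log2 intensities of 6.88 and 6.89 with FGF23, against 6.82 and 6.76 in unstimulated cells. Both FGF23 values lay above both unstimulated values. The log2 ratio was 0.10 ± 0.049 (SD, n = 2 arrays), a 1.07-fold difference with a 95% interval from 0.941 to 1.22 in limma. Egln1 had a single, dim probe, whose mean signal of 67.4 to 121 compares with local backgrounds of 34 to 39. Its log2 ratio was therefore sensitive to background handling, at 0.22 in Agilent's processed ratio and 0.19 where normexp had an offset of 0. The upper ends of the 95% intervals of the fold in limma were then 1.40 and 1.34. The files place part of this probe on chromosome 8 from 127432487 to 127432499 (mm9), a span of 13 bases.

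Egln3, an isoform known for strong induction by low oxygen, had log2 intensities of 8.85 and 8.79 with FGF23, against 8.78 and 8.75 in unstimulated cells. The values with FGF23 were the higher ones, by a log2 ratio of 0.056 ± 0.028 (SD, n = 2 arrays; 95% interval of the fold in limma 0.914 to 1.18). This probe lies on chromosome 12 from 55280953 to 55281012 (mm9, minus strand). The second Egln3 probe, A_55_P1960916, at 55281252 to 55281311, was lower with FGF23 on both arrays. It had log2 intensities of 7.98 and 7.94 with FGF23, against 8.03 and 8.02 in unstimulated cells, a log2 ratio of -0.063 ± 0.024. With this normalization each Egln3 probe kept its sign on both arrays, and their average was -0.0032, so Egln3 has no settled direction here. In Agilent's processed ratio the brighter Egln3 probe gave 0.12 on array 1 and -0.014 on array 2.

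The promoters of Egln1 and Egln3 are shown with that of Ankrd37, another HIF target, which did rise. Each line gives the 250 bases before the start site, 5′ to 3′ on the gene's strand, from RefSeq (GRCm38.p6). Capitals mark ACGTG on either strand, the core of the hypoxia response element that HIF binds. The Egln1 stretch is chr8:124949255-124949504, the Egln3 stretch chr12:54203875-54204124 and the Ankrd37 stretch chr8:45999851-46000100, all on the minus strand.
Egln1: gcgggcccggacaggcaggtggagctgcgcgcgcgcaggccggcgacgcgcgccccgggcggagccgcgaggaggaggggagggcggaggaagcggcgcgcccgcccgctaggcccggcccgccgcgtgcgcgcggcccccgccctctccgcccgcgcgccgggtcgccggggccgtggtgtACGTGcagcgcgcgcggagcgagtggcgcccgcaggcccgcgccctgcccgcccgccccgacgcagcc
Egln3: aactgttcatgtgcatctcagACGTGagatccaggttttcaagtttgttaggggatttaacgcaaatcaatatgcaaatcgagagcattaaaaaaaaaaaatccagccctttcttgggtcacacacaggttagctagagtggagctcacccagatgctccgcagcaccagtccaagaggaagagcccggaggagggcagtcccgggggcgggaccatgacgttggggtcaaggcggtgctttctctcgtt
Ankrd37: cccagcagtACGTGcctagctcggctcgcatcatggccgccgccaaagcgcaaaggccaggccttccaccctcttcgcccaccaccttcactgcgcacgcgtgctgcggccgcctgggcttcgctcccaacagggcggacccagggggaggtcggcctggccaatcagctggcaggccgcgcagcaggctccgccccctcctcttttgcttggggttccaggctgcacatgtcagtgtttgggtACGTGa
Egln1 held 1 match, which began 68 bases before the start site, and Egln3 held 1, at 229 bases. Ankrd37 held 2, at 241 and 6 bases. Of 32851 mouse promoters of that length, 16.6% held ACGTG on either strand, and 6.81% held 2 or more matches. The latter share also counts a single CACGTG as 2 overlapping matches, whereas the 2 of Ankrd37 lie apart. The other form of the core, GCGTG, is not marked and was held by 28.2%. Of that form Egln1 held 1 match, Egln3 0 and Ankrd37 2. A promoter was matched for 8 of the 9 members, with 2 entries for Egln2. Of these 9 promoters 4 held ACGTG, those of Hif1a, Egln1 and Egln3 and 1 of the 2 of Egln2. Hif1a, which did not pass, held 3 matches, at 135, 134 and 70 bases, the first 2 overlapping. Promoters of the other genes that rose are not shown, and a relation between matches and log2 ratios was not tested. Epas1 was the member without a promoter entry.

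Egln2, the prolyl hydroxylase that is not known for HIF induction, had log2 intensities of 12.80 and 12.69 with FGF23, against 12.64 and 12.66 in unstimulated cells. FGF23 values were the higher ones on both arrays, and the log2 ratio of 0.096 ± 0.087 (SD, n = 2 arrays; 95% interval of the fold in limma 0.937 to 1.22) was close in size to that of Egln1. The probe lies on chromosome 7 from 27943678 to 27943737 (mm9, minus strand). A second probe, which starts 342 bases upstream on the transcript, had log2 ratios of -0.23 and 0.097, and averaging both gave 0.014.

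Vhl, which recognises hydroxylated HIF, had log2 intensities of 10.60 and 10.48 with FGF23, against 10.45 and 10.52 in unstimulated cells. The arrays differed in sign and the mean log2 ratio was 0.056 ± 0.14 (SD, n = 2 arrays; 95% interval of the fold in limma 0.909 to 1.19). Its probe lies on chromosome 6 from 113581566 to 113581625 (mm9). Hif1an, the asparaginyl hydroxylase, had log2 intensities of 8.24 and 8.30 with FGF23, against 8.33 and 8.35 in unstimulated cells. It was the 1 member below 0 on both arrays, with a log2 ratio of -0.068 ± 0.027 (SD, n = 2 arrays; 95% interval of the fold in limma 0.838 to 1.09). Its probe lies on chromosome 19 from 44650157 to 44650216 (mm9).

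AATAAA is the hexamer that signals cleavage and polyadenylation in most mRNAs. For the 3 kept member probes that hold it, 30 bases around it are shown, with the hexamer in capitals. The probes of Egln2 and of Egln3 differed in log2 ratio, and so did those of Epas1 and of Arnt, which hold no AATAAA. Whether the hexamer bears on the log2 ratios was not tested. The hexamer was present in 10.1% of the array's 60-base probes.
Egln2, brighter probe A_55_P1960924: tgccagccaagaAATAAAagtttacctcag
Egln3, dimmer probe A_55_P1960916: ggttcgcaaagaAATAAAgttggtgacaga
Vhl, probe A_66_P106593: cctttttagtacAATAAAcggtgctaattg
In Egln2 the hexamer was in the probe further along the transcript. In Egln3 it was in the probe with the negative log2 ratios, and the probe with positive ones starts 299 bases beyond it.

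Taking the brightest probe of each gene, 3 of 9 members were above 0 on both arrays (Egln1, Egln2 and Egln3), where 23.9% of all genes were. Hif1an alone (1 of 9) was below 0 on both, where 22.3% of all genes were. The mean log2 ratio of Egln1 and Egln3 was 0.078, and the median of the other 7 members was 0.030, against -0.00068 over all genes. The order of these values differed between the arrays. On array 1 the mean of Egln1 and Egln3 was 0.070 and the median of the others 0.14, and on array 2 they were 0.086 and -0.00026. Among the 9 genes, with these probes and this normalization, the 95% intervals of the fold in limma reached from 0.808 (Arnt2) to 1.22 (Egln1 and Egln2). Genes whose pair of log2 ratios lay nearest to that of Egln1 were Zswim9, Pex26 and Syde2, and to that of Egln3 Tprgl, Mgea5 and Gskip, by Euclidean distance over 2 arrays. Within a distance of 0.05 there were 627 other genes for Egln1 and 1152 for Egln3, so the genes named are a few of many at like values.

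Among HIF-induced regulators, Ankrd37 rose. Of 15 measured genes of that list, which holds Egln1 and Egln3 too, 1 rose, and the list median was 0.12. On both arrays 13 were above 0 and 1 (Cited2) was below, where 23.9% and 22.3% of all genes were. At an unadjusted p under 0.05 in limma, 6 of the 15 were higher and 0 lower, against 2.6% and 1.31% of all genes. Ankrd37, an ankyrin-repeat gene induced by low oxygen, had log2 ratios of 0.76 and 0.51, rising 1.55-fold (95% interval 1.35 to 1.78, adjusted p = 0.0303 in limma). The oxygen-dependent collagen prolyl hydroxylases P4ha2 and P4ha1 had log2 ratios of 0.44 ± 0.032 and 0.31 ± 0.0053, and the histone demethylase Kdm3a had 0.29 ± 0.042 (SD, n = 2 arrays), and they did not pass (adjusted p from 0.145 to 0.684 in limma). The 95% interval of Ankrd37 lay above those of Egln1 and Egln3 with this normalization, but a difference between genes was not tested. With Agilent's processed ratio or with median centring, 0 genes on the array passed in limma, Ankrd37 included. Cited2, a HIF-induced competitor for coactivators, had log2 ratios of -0.30 and -0.0022.

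**Figure D3:**
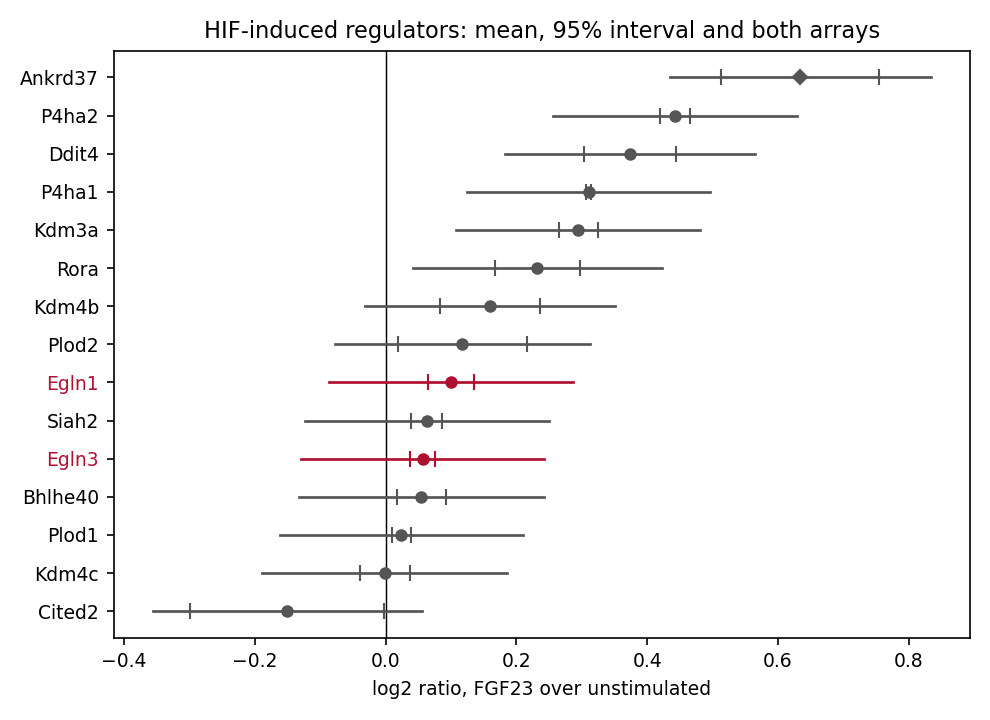
Log2 ratio of FGF23 over unstimulated (x axis) for the 15 measured HIF-induced regulators (rows), with the mean of both arrays (point; diamond where the adjusted p was under 0.05), its 95% interval in limma (line) and each array's value (ticks). Egln1 and Egln3, in red, have intervals that span 0, whereas Ankrd37, at 0.63, is the 1 diamond.

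Of 14 measured genes known as targets of HIF-1 in particular, 3 rose. These were the mitophagy receptor Bnip3 (log2 ratio 1.05 ± 0.16), the lactate exporter Slc16a3 (0.60 ± 0.087) and the pyruvate dehydrogenase kinase Pdk1 (0.59 ± 0.083; SD, n = 2 arrays). In this list 11 were above 0 on both arrays and 0 below on both, where 23.9% and 22.3% of all genes were. At an unadjusted p under 0.05 in limma, 9 of the 14 were higher and 0 lower, against 2.6% and 1.31% of all genes. The lists were chosen with earlier results of these data known. The list median was 0.25, with array 1 giving 0.17 and array 2 giving 0.34. Of 11 measured genes known from HIF-2, 0 passed in limma, 2 were higher and 2 lower at an unadjusted p under 0.05, and the median was 0.050. That median was 0.068 on array 1 and -0.012 on array 2, and -0.031 with probes averaged, so it has no settled sign. The stanniocalcin gene Stc2 (log2 ratio 0.39 ± 0.10) and the angiogenic factor Vegfa (0.29 ± 0.25) were above 0 on both arrays, and the cyclin Ccnd1 (-0.49 ± 0.050) below (SD, n = 2 arrays). The erythropoietin gene Epo was not among the measured genes.

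**Figure D4:**
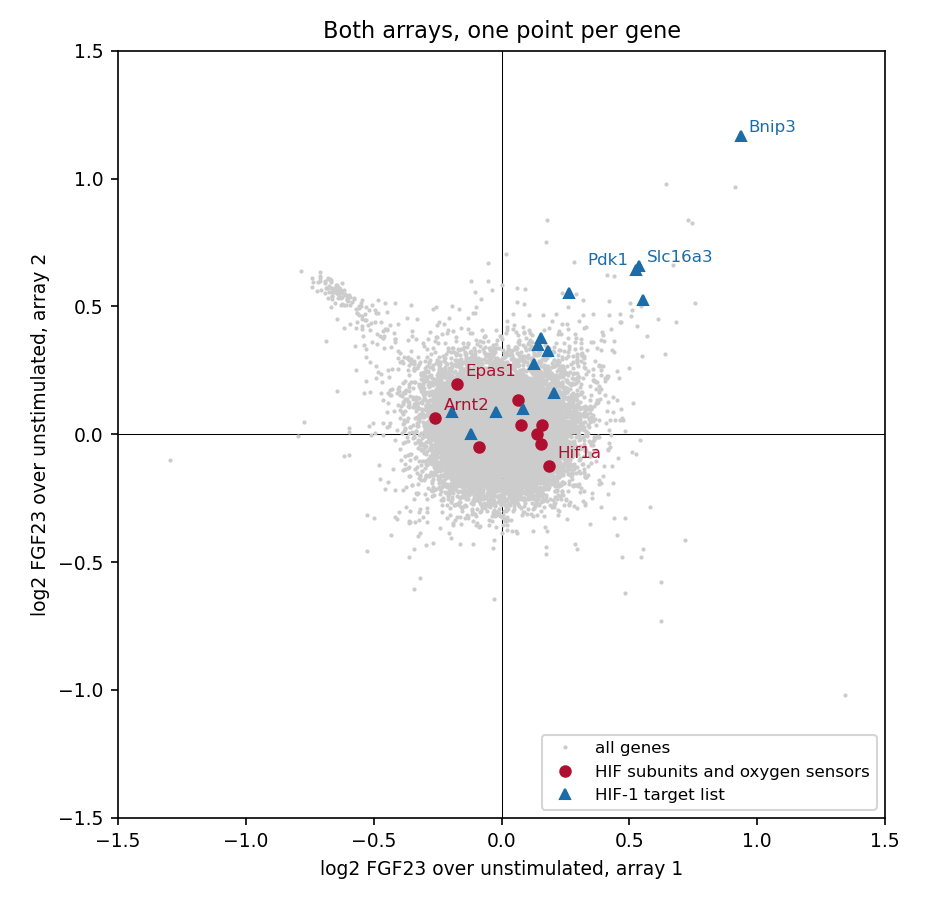
Log2 ratio of FGF23 over unstimulated on array 1 (x axis) and array 2 (y axis) for all 19220 genes (grey), the 9 HIF subunits and oxygen sensors (red circles) and 14 measured HIF-1 targets (blue triangles). The red circles sit inside the grey cloud, while Bnip3, Slc16a3 and Pdk1 lie far out at the upper right.

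No gene of the machinery around the members passed. Of 25 measured genes of the Vhl ligase and of HIF protein stability, 0 passed in limma, and 0 were under 0.05 unadjusted in either direction, with a median of -0.0062. In that list the deubiquitinase Usp20 had a log2 ratio of 0.13 ± 0.051 and the neddylation enzyme Ube2m -0.12 ± 0.054 (SD, n = 2 arrays). Of 20 measured coactivators and competitors 0 passed in limma, with 0 under 0.05 unadjusted, a median of -0.0052 and the coactivator Ncoa1 at 0.15 ± 0.036. Hif3a, which encodes a further alpha subunit, was not measured.

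Of 12 measured relatives that share the PAS domain of the HIF subunits, 0 passed in limma and 1, Sim2 (log2 ratio 0.25 ± 0.060, SD, n = 2 arrays), was under 0.05 unadjusted. A list of other oxygenases that use 2-oxoglutarate, as the Egln enzymes do, had 33 measured genes. It also holds Aspdh (log2 ratio -0.057), an aspartate dehydrogenase and not such an oxygenase. In limma 0 of the 33 passed and 4 were higher at an unadjusted p under 0.05, with a median of 0.026. These 4 were P4ha2, P4ha1 and Kdm3a, which are also in the list of HIF-induced regulators, and the histone demethylase Kdm5b (log2 ratio 0.29 ± 0.12). The 5-methylcytosine dioxygenase Tet3 had a log2 ratio of -0.15 ± 0.19 and Tmlhe, an enzyme of carnitine synthesis, -0.091 ± 0.014 (SD, n = 2 arrays). All 18 genes of 2-oxoglutarate and succinate metabolism were measured, 0 passed or were under 0.05 unadjusted in limma, and the median was 0.00060, with the isocitrate dehydrogenase Idh2 at 0.14 ± 0.018 (SD, n = 2 arrays). Of 21 kinases and factors that feed into HIF synthesis, 0 passed in limma and 1, the mTOR inhibitor Ddit4 (0.37 ± 0.099, SD, n = 2 arrays; itself a HIF target), was under 0.05 unadjusted.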

How the data were processed

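The 2 dye-swapped arrays were analysed. Per the file headers, Agilent Feature Extraction 11.5.1.1 gave each spot's mean and local background intensity in linear scanner units. The authors deposited with them a log10 ratio of Cy5 over Cy3, made by the software from spatially detrended, dye-normalized signals per the file headers, and a p-value of that ratio, which is not reported here. Probe positions are on mm9, per the file headers.

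From the deposited intensity, mean signals were background-corrected (normexp, offset 50) and normalized within arrays by loess in limma 3.58.1 under R 4.3.3, giving control spots a weight of 0. Ratios were turned to FGF23 over unstimulated. Condition levels are the loess-normalized channels after Aquantile scaling. Outlier-flagged spots were left out. Probes were kept where well above background on both arrays in 1 condition (26941 of 55681), and a gene is its brightest kept probe. Symbols followed RefSeq for 28026 matched probes. limma's lmFit and eBayes were fitted over 19220 genes with Benjamini-Hochberg adjustment, on 1 residual degree of freedom and a prior of 11.9 shared across genes. Precision is limited by having 2 arrays. The alternatives tried changed the background correction, normalization, dim-probe filter, choice of probe, prior and array.

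All members and every kept or dropped probe of them were reported. List genes were named where they passed, or else from the 2 highest and 2 lowest means among those with 1 sign on both arrays. Kdm3a, Kdm5b, Aqp2, Itgam, Csf1r, Kdr, Pecam1, C1qb and the genes named as not measured were chosen after their values were seen. An item under this rule is not reported here. Members and lists were chosen with earlier results of these data known.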

Additional observations from a re-analysis of the deposited data

How the results depend on the processing

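The members past the test numbered 0 under the 9 alternatives that use both arrays; a single array allows no test, and Arnt2 had no value under the stricter filter on dim probes. Genes past the test, 9 here, numbered 0 with Agilent's processed log ratio, 0 with median centring, 5 with a normexp offset of 0, 15 without the filter on dim probes, 17 with a gene's probes averaged, 23 over every kept probe and 79 where the prior was robust and followed intensity. The mean log2 ratio of Egln1 and Egln3, 0.078, was 0.14 with Agilent's ratio, 0.12 at offset 0, 0.065 after median centring and 0.048 when probes were averaged; single arrays gave 0.070 to 0.086. The median of the other members was -0.00026 to 0.14 on single arrays. Averaging probes turned the sign of Egln3 (-0.0032) and of the HIF-2 target median (-0.031), which was -0.012 to 0.068 on single arrays. The coactivator median was 0.0018 and 0.0021 on single arrays. With median centring the upper end of the interval of the fold was 2.34 for Egln1. The causes were not tested. No paired analysis was possible beyond the fit itself, because each array's ratio already pairs FGF23 with unstimulated RNA. Low signal limits Egln1 and Arnt2 most.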
